A study of Mus musculus with 8 samples.

Results

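The genes described here are 38 mouse genes known to be induced by type I interferon, the alpha and beta interferons, followed across 8 mixed co-cultures of splenocytes and colon cancer cells. They were chosen by name, with earlier results of these data known. All 38 symbols were found among the 52636 gene IDs of the deposited tables. Of them, 24 reached a TPM of 1 (a transcript abundance scaled to the same total in every library) in at least 4 of the 8 libraries and were tested, and 14 did not and are given by their levels.

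Trogocytic cancer cells were in 4 of the co-cultures, and non-trogocytic cancer cells, the study's control, in the other 4. In both groups, organoids of colon cancer that carried a tdTomato reporter had been injected into the spleen, and the cancer cells that grew as liver metastases had been sorted by their protein levels of tdTomato, the tumour reporter, and of CD4, a marker of helper T cells. Trogocytosis is the uptake of pieces of another cell's membrane, so CD4 protein on a cancer cell can come from a T cell. Both groups were then cultured for 5 days with syngeneic splenocytes of C57BL/6 mice that carried an Actin-GFP transgene, at 50 splenocytes for each cancer cell. The polyadenylated RNA is of the whole dish, with splenocytes and cancer cells together, so fewer cells of a type and less RNA per cell cannot be told apart. Whether each replicate had its own animal is not in the labels, so p-values cover only how these libraries spread, and that spread may be technical.

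Depth was 1.39, 1.70, 1.56 and 1.46 Gb of aligned bases in trogocytic replicates 1 to 4, against 1.84, 1.68, 1.81 and 1.53 Gb in non-trogocytic replicates 1 to 4. Per library, 10867 to 12362 genes stood at 1 TPM or more. A level of exactly 0 was common at this depth: 14.4% of all 11433 genes tested had at least 1 library listed at 0, and 8 of the 24 tested members did. All 8 of these members had a trogocytic library at 0, and only Ifit1 also had a non-trogocytic one. For those members the values or ranges of the libraries are given in place of a mean. Library mean levels of 22 tested macrophage markers lay at 4.34 to 6.22 in trogocytic and 5.41 to 6.67 in non-trogocytic co-cultures on the log2(TPM + 1) scale, with trogocytic replicates 3 and 2 the lowest. Their list of 25 genes summed to 3528 to 11420 TPM in trogocytic and 6420 to 27930 TPM in non-trogocytic co-cultures. Markers of both labelled components were present: 12 epithelial genes summed to 6185 to 7586 TPM in trogocytic and 3821 to 9797 TPM in non-trogocytic co-cultures, and 12 T cell genes to 388 to 1491 TPM in trogocytic and 116 to 987 TPM in non-trogocytic co-cultures.

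Type I interferons bind the receptor pair Ifnar1 and Ifnar2, and the kinases on that receptor start a signal in which Stat2 joins Irf9 in a complex. That complex binds the interferon stimulated response element in front of its target genes. The proteins made from those genes sense viral RNA and DNA, degrade or trap viral components and adjust the signal itself. Macrophages, which are abundant in the spleen, are known to express many of these genes even without infection.

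The response element was looked up in the promoter windows that RefSeq gives for the members, since it is the sequence that the pathway is known to act through. Windows of 250 bases before the annotated start, on the GRCm38.p6 build, were at hand for 28 of the 38 genes. The element's core was searched on both strands as GAAANNGAAA, which reads TTTCNNTTTC on the other strand. A gene with several annotated starts has several windows, and it counts as holding the core if any of them does. The core was held by 10 of the 28 genes (35.7%), against 936 of all 27025 genes with a window (3.46%). The separate interferon gamma activated sequence, searched as TTCNNNGAA, which reads the same on both strands, was held by 6 of the 28 genes (21.4%), against 8.13% of all genes with a window. A match is a description of these letters and does not show that a factor binds there. Other spacings and mismatches were not searched, so a window without a match can still hold an element. The windows that follow are shown because their genes carry the results: those of Oas1a (chr5:120907526-120907775, minus strand) and Bst2 (chr8:71537473-71537722, minus strand), which stood lower in trogocytic co-cultures, those of Isg15 (chr4:156200819-156201068, minus strand) and Ifit3 (chr19:34583279-34583528, plus strand), which were listed at 0 in 2 trogocytic libraries each, and those of Xaf1 (chr11:72301379-72301628, plus strand), Ifitm3 (chr7:141010745-141010994, minus strand) and Ddx58 (chr4:40239826-40240075, minus strand), in which the core was not found. Each is read toward its gene, and capitals mark the response element core, on either strand.
Oas1a: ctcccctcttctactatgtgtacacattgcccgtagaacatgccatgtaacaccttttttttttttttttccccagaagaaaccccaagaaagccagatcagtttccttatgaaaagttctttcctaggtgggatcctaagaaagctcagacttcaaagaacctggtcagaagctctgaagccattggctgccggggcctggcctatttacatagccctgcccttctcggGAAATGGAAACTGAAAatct
Bst2: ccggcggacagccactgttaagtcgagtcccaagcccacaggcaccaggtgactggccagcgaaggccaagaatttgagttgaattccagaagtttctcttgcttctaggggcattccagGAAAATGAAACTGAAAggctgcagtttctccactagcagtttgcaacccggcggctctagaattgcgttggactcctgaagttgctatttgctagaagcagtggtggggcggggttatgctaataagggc
Isg15: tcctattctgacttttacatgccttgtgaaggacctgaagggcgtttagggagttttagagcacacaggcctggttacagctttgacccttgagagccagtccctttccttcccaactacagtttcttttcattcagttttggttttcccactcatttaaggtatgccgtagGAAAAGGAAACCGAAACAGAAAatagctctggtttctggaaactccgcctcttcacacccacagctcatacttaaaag
Ifit3: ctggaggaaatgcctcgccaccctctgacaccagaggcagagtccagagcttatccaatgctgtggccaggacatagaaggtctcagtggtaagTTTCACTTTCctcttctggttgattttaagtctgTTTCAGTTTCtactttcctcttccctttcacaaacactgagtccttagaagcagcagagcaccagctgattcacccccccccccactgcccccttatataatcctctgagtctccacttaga
Xaf1: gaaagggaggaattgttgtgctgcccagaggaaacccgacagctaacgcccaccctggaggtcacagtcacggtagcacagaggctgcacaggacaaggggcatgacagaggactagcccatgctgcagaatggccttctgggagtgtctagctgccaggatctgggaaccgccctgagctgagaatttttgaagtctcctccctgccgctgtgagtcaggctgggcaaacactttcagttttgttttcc
Ifitm3: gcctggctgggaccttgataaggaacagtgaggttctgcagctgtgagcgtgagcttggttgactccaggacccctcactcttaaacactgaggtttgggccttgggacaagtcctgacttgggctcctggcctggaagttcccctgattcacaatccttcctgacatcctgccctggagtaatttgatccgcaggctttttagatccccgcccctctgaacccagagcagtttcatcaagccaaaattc
Ddx58: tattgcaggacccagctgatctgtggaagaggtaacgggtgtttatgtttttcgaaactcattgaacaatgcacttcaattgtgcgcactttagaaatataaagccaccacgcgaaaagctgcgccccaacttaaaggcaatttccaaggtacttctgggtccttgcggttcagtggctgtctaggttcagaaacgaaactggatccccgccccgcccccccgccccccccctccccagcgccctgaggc
Oas1a and Bst2 held 2 overlapping cores each, Isg15 held 3 overlapping cores and Ifit3 held 2 separate ones. The other members with a core were Ifit1, Ifit3b, Rsad2, Oas3, Stat2 and Trim30a. Of members with a window, 6 of 19 tested ones and 4 of 9 below the filter held the core. Members on both sides of 0 were found with and without a core: Oas1a stood lower and Ifit1 higher with one, and Xaf1 stood lower and Ddx58 higher without one.

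Most of the tested members stood lower in trogocytic co-cultures, and none passed the test over all genes. A second list of interferon stimulated genes, described below, did not share this: of 40 tested, 20 were below 0 and 20 above. Of the 24, 17 had a log2 fold change below 0 (trogocytic minus non-trogocytic log2(TPM + 1), a scale that shrinks changes of low genes), and 7 had one above 0. Among all 11433 genes tested, 49.3% were below 0. The median over the 24 was −0.64, against 0.01 over all genes tested, and the fold changes ran from −2.03 for Ifitm3 to 1.35 for Ddx58. The mean level of the 24 genes on the log2(TPM + 1) scale was 3.71, 2.89, 2.98 and 3.27 in trogocytic replicates 1 to 4, against 3.95, 3.74, 3.85 and 3.85 in non-trogocytic replicates 1 to 4. These library means did not overlap between the groups, and trogocytic replicate 1 lay just under the lowest non-trogocytic library.

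The test was limma with Benjamini-Hochberg adjustment over all genes tested, and called genes are those with an adjusted p below 0.05. None of the 24 members was called, and their lowest adjusted p was 0.939; over all genes 0.0525% were called. At an unadjusted p below 0.05, 6 members stood lower (Xaf1, Zbp1, Oas1a, Rtp4, Ifitm3 and Bst2), beside 2.52% of all genes, and 2 stood higher (Ddx58 and Isg20), beside 2.07% of all genes. The groups did not overlap for 2 members that stood lower (Xaf1 and Oas1a), beside 1.3% of all genes, and for 1 that stood higher (Ddx58), beside 1.37%. Without non-trogocytic replicate 1, 3 members in place of 6 stood lower at that threshold, and without trogocytic replicate 3 the median was −0.36. Without trogocytic replicate 2 or 4, or non-trogocytic replicate 2 or 4, 1 member in place of 2 stood higher at it, and without non-trogocytic replicate 4 the groups did not overlap for 5 members in place of 3. The shares over all genes above are for all libraries and are not given for these left-out fits. For 16 of the 24 the confidence interval of the fold change covered 0.

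**Figure D1:**
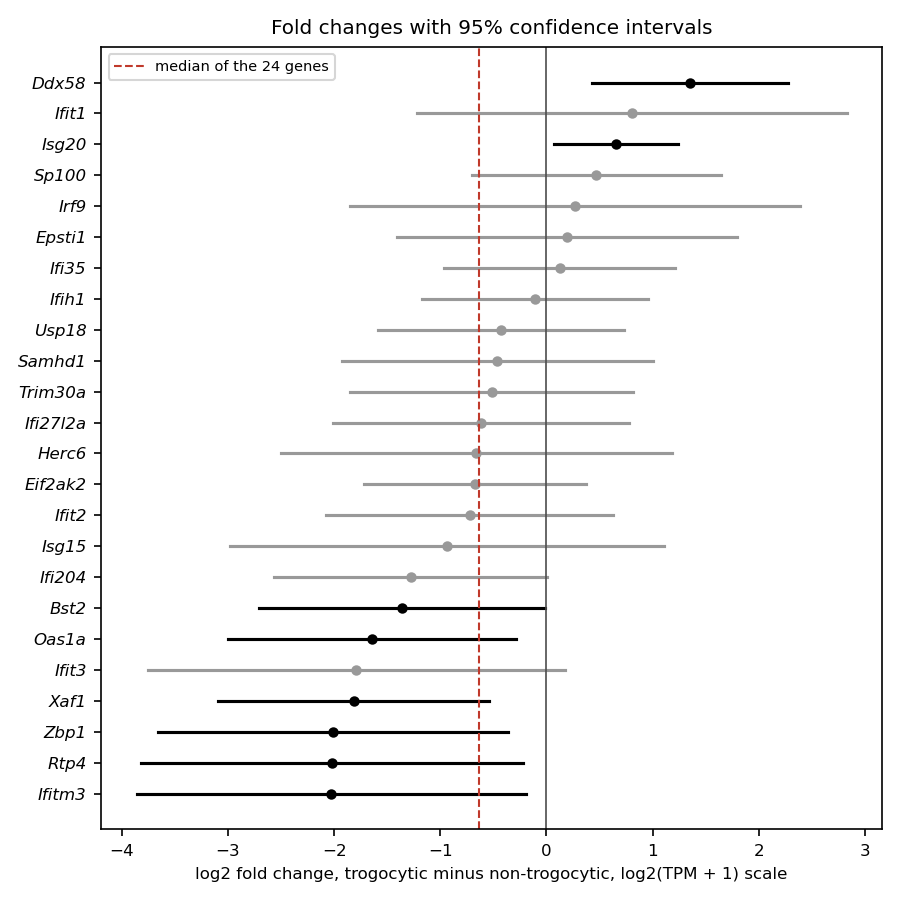
Log2 fold changes of the 24 tested genes (x axis; trogocytic minus non-trogocytic, log2(TPM + 1) scale), one gene per row; points are estimates, bars are 95% confidence intervals from limma, black marks an unadjusted p below 0.05 and grey the rest, and the dashed line is the median of −0.64. Ddx58 and Isg20 lie above 0 with black bars, and 6 genes lie below 0 with black bars.

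The sensors of nucleic acid among the members stood in opposite directions, with Ddx58 higher and Zbp1 and Ifi204 lower in trogocytic co-cultures. Ddx58 (ENSMUSG00000040296.15, chr4:40203773-40239828, minus strand on GRCm38) encodes RIG-I, the helicase that detects short viral RNA and starts interferon production. It stood at 23.3, 15.04, 27.01 and 25.5 TPM in trogocytic replicates 1 to 4, against 11.5, 13.1, 5.15 and 5.31 TPM in non-trogocytic replicates 1 to 4. Every trogocytic library lay above every non-trogocytic one, and the lowest trogocytic library, replicate 2, was close to the highest non-trogocytic library, also replicate 2. The means were 22.7 ± 5.33 TPM in trogocytic and 8.76 ± 4.13 TPM in non-trogocytic co-cultures (SD, n = 4 each), and the log2 fold change was 1.35 ± 0.42 (SE), with a limma p of 0.00815 before and 0.939 after adjustment. Leaving out any 1 library kept the unadjusted limma p between 0.00500 and 0.0264. Ifih1, which encodes the partner helicase MDA5 for long viral RNA, did not share this pattern: its trogocytic libraries spanned 3.04 to 6.75 TPM and its non-trogocytic libraries 2.06 to 6.84 TPM. Dhx58, the regulatory helicase LGP2 of the same family, was listed at 1.84 TPM in trogocytic replicate 1 and at 0 in the other 7 libraries.

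Zbp1 (chr2:173206612-173218923, minus strand), which binds left-handed nucleic acid and can trigger cell death, was low in trogocytic replicates 2 and 3. It measured 3.61, 0, 0.282 and 8.23 TPM in the trogocytic co-cultures and 20.3, 10.01, 8.87 and 5.29 TPM in the non-trogocytic ones, replicates 1 to 4 in order. Trogocytic replicate 4 lay above the lowest non-trogocytic library, so the groups overlapped. Its fold change was −2.01 ± 0.74 with an unadjusted limma p of 0.0212, which was 0.00345 to 0.0651 when any 1 library was left out. Ifi204 (chr1:173747293-173766943, minus strand), a DNA sensor of a family of close paralogs in which reads may be shared, read 10.7, 2.64, 2.25 and 8.20 TPM in trogocytic replicates 1 to 4, against 23.95, 8.75, 7.53 and 20.3 TPM in non-trogocytic replicates 1 to 4. Here trogocytic replicates 2 and 3 were again the low libraries and the groups overlapped. The fold change was −1.28 ± 0.58, with an unadjusted limma p of 0.0513.

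**Figure D2:**
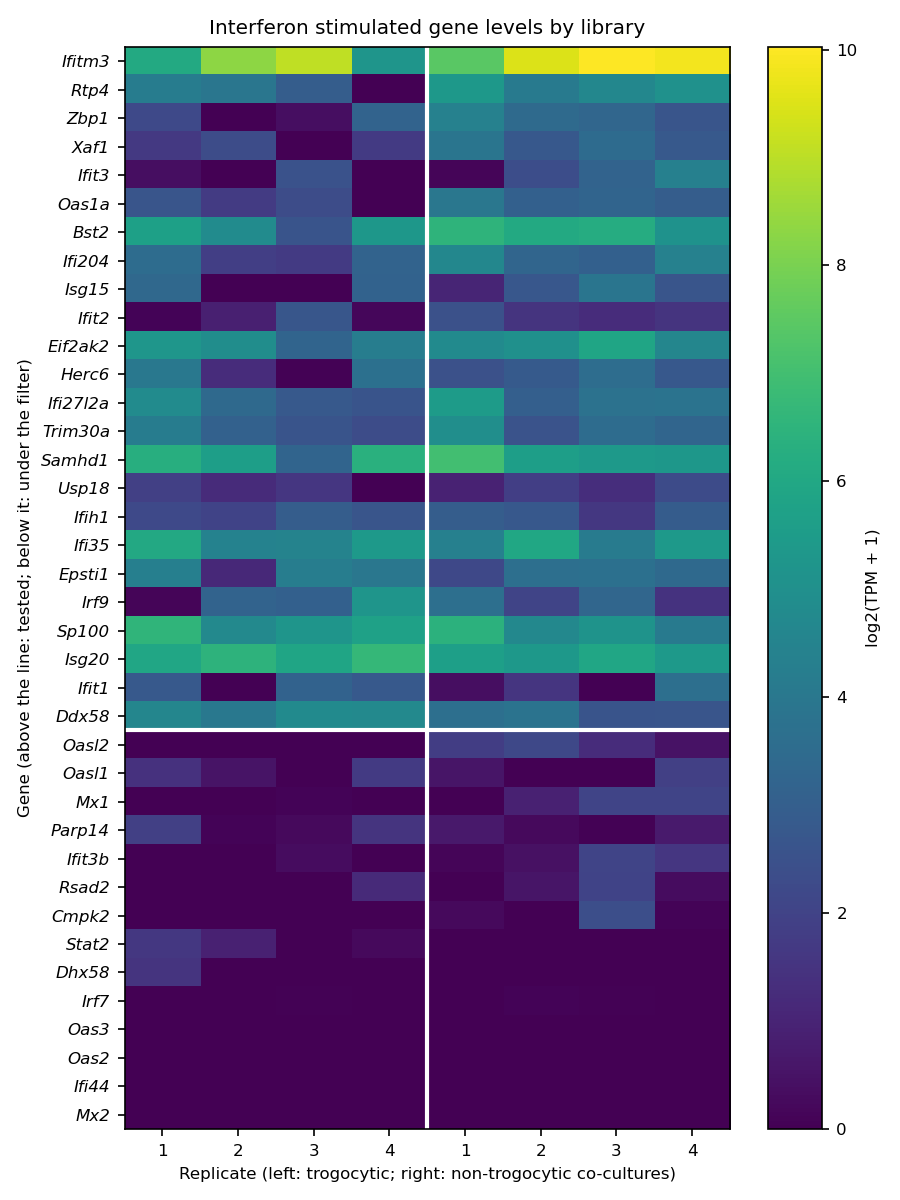
Level of each of the 38 genes (rows) in each library (columns; trogocytic replicates 1 to 4 at the left of the white line, non-trogocytic replicates 1 to 4 at the right), coloured by log2(TPM + 1); tested genes, ordered by fold change from lowest to highest, are above the horizontal line and genes under the filter below it. Ifitm3 is the most abundant gene, and trogocytic columns are darker for Rtp4, Zbp1, Xaf1 and Oas1a and brighter for Ddx58.

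The enzymes that act on viral RNA and nucleotides differed among themselves. Oas1a (ENSMUSG00000052776.10, chr5:120896256-120907521, minus strand) encodes an oligoadenylate synthetase, which on binding double-stranded RNA makes the messenger that activates RNase L. It stood at 5.23, 2.31, 4.05 and 0 TPM in trogocytic replicates 1 to 4, against 14.7, 7.47, 8.47 and 6.85 TPM in non-trogocytic replicates 1 to 4. Its highest trogocytic library, replicate 1, lay under its lowest non-trogocytic library, replicate 4. It had a fold change of −1.64 ± 0.61, with a limma p of 0.0223 before and 0.9998 after adjustment. Without trogocytic replicate 4, the library at 0, it was −1.08 with an unadjusted limma p of 0.0541. Oas1a has near-identical neighbouring copies, so how its reads were assigned is uncertain. The other synthetases gave little signal: Oas2 and Oas3 were listed at 0 in all 8 libraries and Oasl1 reached 2.24 TPM in trogocytic and 2.74 TPM in non-trogocytic co-cultures. Oasl2, related to the synthetases, was listed at 0 in all 4 trogocytic libraries and at 2.55, 3.54, 1.42 and 0.407 TPM in the non-trogocytic ones, with no test.

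Isg20, an exonuclease that degrades single-stranded RNA, was the other member with an unadjusted p below 0.05 on the higher side. Its levels (chr7:78913424-78920396, plus strand) were 59.7, 87.1, 59.2 and 102 TPM in trogocytic replicates 1 to 4, against 49.6, 39.996, 59.9 and 41.6 TPM in non-trogocytic replicates 1 to 4. Trogocytic replicates 2 and 4 were the high ones, while replicates 1 and 3 lay level with the highest non-trogocytic library, replicate 3. The means were 77.1 ± 21.2 TPM in trogocytic and 47.8 ± 9.11 TPM in non-trogocytic co-cultures (SD, n = 4 each). The fold change was 0.66 ± 0.26, with an unadjusted limma p of 0.0306, which was 0.0226 to 0.0961 when any 1 library was left out. Samhd1 lowers the cell's pool of deoxynucleotides that viruses need. It read 77.1, 47.6, 8.30 and 80.96 TPM in the trogocytic co-cultures and 125, 48.3, 41.5 and 38.6 TPM in the non-trogocytic ones, replicates 1 to 4 in order. Non-trogocytic replicate 1 and trogocytic replicate 3 stood apart from the rest of their groups at opposite ends, and the fold change of −0.46 ± 0.66 was smaller than its error. Eif2ak2, the kinase PKR that halts translation on binding double-stranded RNA, spanned 8.36 to 37.4 TPM in trogocytic and 23.3 to 58.9 TPM in non-trogocytic co-cultures, with a fold change of −0.67 ± 0.47. Antisense genes overlap 6 members, Eif2ak2, Ifi35, Usp18, Irf7, Oasl1 and Dhx58, and without a stated strand setting reads of such pairs cannot be told apart.

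The Ifit genes, which encode proteins that bind viral RNA ends and lie side by side on chromosome 19, were low and uneven. Ifit3 (chr19:34583531-34588731, plus strand) stood at 0.299, 0, 4.69 and 0 TPM in trogocytic replicates 1 to 4, against 0.111, 4.15, 8.04 and 19.4 TPM in non-trogocytic replicates 1 to 4. Trogocytic replicate 3 and non-trogocytic replicates 2 to 4 held nearly all of its signal, while non-trogocytic replicate 1 was as low as the other trogocytic libraries. This gave a fold change of −1.79 ± 0.89 with an unadjusted limma p of 0.0700. Its near copy Ifit3b, with which reads may be shared, reached at most 0.276 TPM in trogocytic libraries and read 0.112, 0.378, 3.16 and 2.03 TPM in the non-trogocytic ones, the same replicates 3 and 4 being highest. Ifit1 (chr19:34640871-34650009, plus strand) did not share the direction of Ifit3. It was 5.89, 0, 7.996 and 6.04 TPM in trogocytic replicates 1 to 4, against 0.282, 1.91, 0 and 11.6 TPM in non-trogocytic replicates 1 to 4. Each group had a library at 0, and the highest value of all was non-trogocytic replicate 4. The fold change was 0.80 ± 0.91, less than its error. Ifit2 spanned 0.0831 to 5.50 TPM in trogocytic and 1.43 to 4.59 TPM in non-trogocytic co-cultures, with a fold change of −0.72 ± 0.61.

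The membrane proteins that block virus entry and exit stood lower in trogocytic co-cultures and were among the most abundant members. Ifitm3 (ENSMUSG00000025492.6, chr7:141009586-141010770, minus strand) hinders the fusion of viruses with endosomes and is expressed in many cell types, intestinal epithelium among them. Its levels were 66.4, 321, 532 and 36.9 TPM in trogocytic replicates 1 to 4, against 173, 728, 1039.9 and 912 TPM in non-trogocytic replicates 1 to 4. Trogocytic replicates 1 and 4 and non-trogocytic replicate 1 were the low libraries, and the groups overlapped because non-trogocytic replicate 1 lay under trogocytic replicates 2 and 3. The means were 239 ± 233 TPM in trogocytic and 713 ± 382 TPM in non-trogocytic co-cultures (SD, n = 4 each), with a fold change of −2.03 ± 0.83 and a limma p of 0.0334 before and 0.9998 after adjustment. When any 1 library was left out, the fold change of Ifitm3 was −2.65 to −1.38 and its unadjusted limma p 0.00686 to 0.101. The paralogs beside it varied in the same libraries and share sequence with it. Ifitm1, named after its values were seen, measured 17.1, 209, 331 and 44.4 TPM in the trogocytic co-cultures and 92.4, 293, 530.3 and 367 TPM in the non-trogocytic ones. Ifitm2 measured 672, 1108, 1188 and 737 TPM in the trogocytic co-cultures and 749.6, 1467, 1516 and 1664 TPM in the non-trogocytic ones. In both, trogocytic replicates 1 and 4 and non-trogocytic replicate 1 were again the lowest libraries of their groups, and the fold changes were −1.64 ± 0.85 for Ifitm1 and −0.52 ± 0.28 for Ifitm2.

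Bst2 (chr8:71534255-71537456, minus strand), the tether that holds budding viruses on the cell surface, read 51.2, 27.7, 5.16 and 38.5 TPM in trogocytic replicates 1 to 4, against 90.02, 67.2, 73.4 and 33.5 TPM in non-trogocytic replicates 1 to 4. Trogocytic replicate 3 was the lowest by far, and the lowest non-trogocytic library, replicate 4, lay inside the trogocytic range. The means were 30.6 ± 19.5 TPM in trogocytic and 66.02 ± 23.7 TPM in non-trogocytic co-cultures (SD, n = 4 each). Its fold change came to −1.36 ± 0.61 with an unadjusted limma p of 0.0479. Without trogocytic replicate 3 it was −0.70, with an unadjusted limma p of 0.0976.

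The ubiquitin-like modifier Isg15, a classic marker of interferon response, overlapped between the groups. It was 9.51, 0, 0 and 7.82 TPM in trogocytic replicates 1 to 4, against 1.05, 5.60, 13.8 and 5.22 TPM in non-trogocytic replicates 1 to 4, with trogocytic replicates 2 and 3 listed at 0, and its fold change was −0.94 ± 0.92. Its remover Usp18 was 2.70, 1.37, 1.97 and 0 TPM in trogocytic replicates 1 to 4, against 0.948, 2.62, 1.47 and 3.95 TPM in non-trogocytic replicates 1 to 4, with a fold change of −0.43 ± 0.52. Herc6, the mouse ligase that attaches Isg15, spanned 0.0503 to 15.005 TPM in trogocytic and 4.67 to 10.96 TPM in non-trogocytic co-cultures, with a fold change of −0.66 ± 0.83. In each of these 3 genes the trogocytic range reached below the non-trogocytic one and overlapped it.

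Several of the most strongly inducible antiviral genes were at or near 0. Ifi44 and the GTPase gene Mx2 were listed at 0 in all 8 libraries. Mx1, also a GTPase gene, was at most 0.0847 TPM in trogocytic libraries and read 0, 0.904, 3.14 and 3.18 TPM in the non-trogocytic ones. Rsad2, which encodes viperin, an enzyme that makes a chain-ending nucleotide, was 1.31 TPM in trogocytic replicate 4 and 0 in the other 3, against 0, 0.500, 3.07 and 0.253 TPM in non-trogocytic co-cultures. Its neighbour Cmpk2, a nucleotide kinase, was listed at 0 in all 4 trogocytic libraries and at 0.184, 0, 4.31 and 0.0798 TPM in non-trogocytic ones. Of the 14 members below the filter, 6 had a lower mean in trogocytic co-cultures, 4 had a higher one and 4 were listed at 0 throughout. None of the 14 went above 4.31 TPM in any library.

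The transcription factors that carry the interferon signal showed no common direction. Irf9, the DNA-binding part of the response complex, was 0.0909, 8.07, 7.35 and 36.2 TPM in trogocytic replicates 1 to 4, against 11.5, 3.19, 8.93 and 1.78 TPM in non-trogocytic replicates 1 to 4. Trogocytic replicate 4 was the highest library and trogocytic replicate 1 the lowest, so the trogocytic libraries enclosed the whole non-trogocytic range. The log2 difference was 0.27 ± 0.96. Stat2 was at 2.09, 0.895, 0 and 0.205 TPM in trogocytic replicates 1 to 4 and listed at 0 in all 4 non-trogocytic libraries, under the filter. Irf7, which amplifies interferon production, stayed under 0.1 TPM in every library.

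Of the remaining members, Xaf1 and Rtp4 stood lower and the others varied without a common direction. Xaf1 (ENSMUSG00000040483.15, chr11:72301629-72313733, plus strand), which encodes a factor that opposes inhibitors of cell death, was 2.17, 3.99, 0 and 2.27 TPM in trogocytic replicates 1 to 4, against 13.7, 5.77, 10.3 and 6.05 TPM in non-trogocytic replicates 1 to 4. All 4 trogocytic libraries lay under all 4 non-trogocytic ones. The fold change was −1.82 ± 0.58, with a limma p of 0.00977 before and 0.939 after adjustment, and it stayed between −2.12 and −1.34 when any 1 library was left out. Read depth averaged along the gene model of Xaf1 was 0 to 4.39 across libraries, so its levels rest on few reads. Depth was likewise low for Zbp1 at 0 to 2.59, Rtp4 at 0 to 5.19 and Ddx58 at 1.95 to 6.78. Rtp4 (chr16:23520291-23614222, plus strand), a chaperone of membrane receptors, read 17.3, 14.2, 6.74 and 0 TPM in trogocytic replicates 1 to 4, against 39.2, 16.7, 23.8 and 32.2 TPM in non-trogocytic replicates 1 to 4. Trogocytic replicate 1 lay just above non-trogocytic replicate 2, and the other 3 trogocytic libraries lay under every non-trogocytic library. The resulting fold change was −2.02 ± 0.81 with an unadjusted limma p of 0.0312, and without trogocytic replicate 4, the library at 0, it was −1.10 with an unadjusted limma p of 0.0357. When any 1 library was left out, the unadjusted limma p of Rtp4 was 0.0142 to 0.0715.

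Sp100, a component of nuclear bodies that restrict DNA viruses, stood at 94.1, 25.1, 36.5 and 51.9 TPM in trogocytic replicates 1 to 4, against 85.6, 24.5, 34.8 and 15.9 TPM in non-trogocytic replicates 1 to 4. Replicate 1 was the highest library in both groups, and non-trogocytic replicates 2 and 4 lay under the trogocytic range. Its fold change was 0.47 ± 0.53. Ifi35 measured 64.8, 20.8, 21.6 and 42.1 TPM in the trogocytic co-cultures and 19.5, 61.1, 17.1 and 41.8 TPM in the non-trogocytic ones, replicates 1 to 4 in order. Epsti1 measured 19.1, 1.24, 18.03 and 14.7 TPM in the trogocytic co-cultures and 3.48, 11.6, 12.05 and 9.75 TPM in the non-trogocytic ones. In both genes the groups overlapped and the fold changes, 0.13 ± 0.49 for Ifi35 and 0.19 ± 0.72 for Epsti1, were smaller than their errors. Ifi27l2a spanned 5.04 to 27.2 TPM in trogocytic and 7.26 to 43.9 TPM in non-trogocytic co-cultures, and Trim30a, a regulator of inflammatory signalling, spanned 4.06 to 17.6 TPM in trogocytic and 4.97 to 29.8 TPM in non-trogocytic co-cultures. For both of these genes replicate 1 was the highest library of each group. Parp14, an ADP-ribosyltransferase, was at 2.72, 0.0666, 0.182 and 1.84 TPM in trogocytic and 0.587, 0.198, 0.0537 and 0.645 TPM in non-trogocytic libraries, under the filter.

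The members did not vary together as 1 block within the groups. Across the 276 pairs of the 24 tested members, the median correlation of their deviations from the group means was 0.02, and it was 0.02 over pairs of all genes. Within that spread some pairs were alike: Ifi27l2a and Trim30a had r = 0.99, Bst2 and Samhd1 0.93, and Isg15 and Herc6 0.91. The most opposed pair was Zbp1 and Ifitm3, at −0.94. These correlations are over 8 libraries that differ in cell mixture and depth together, and they are descriptions.

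How the members relate to macrophage level was asked because the macrophage markers also stood lower in trogocytic co-cultures. Of 22 tested markers, 20 had a fold change below 0 and 4 of these had an unadjusted p below 0.05, with a median of −0.72. Lyz2, the lysozyme of myeloid cells, was 3846, 1315, 1175 and 2999 TPM in trogocytic replicates 1 to 4, against 12057, 4919.6, 6060.1 and 2636 TPM in non-trogocytic replicates 1 to 4, with a fold change of −1.43 ± 0.48. The groups overlapped, and trogocytic replicates 2 and 3 were the lowest libraries. None of the members is on the macrophage list. Across the 8 libraries the mean of the 24 members and the macrophage mean had r = 0.83 and rho = 0.69, and without trogocytic replicates 3 and 2, the libraries farthest from the median macrophage mean, r was 0.33. Over all 8 libraries the relation therefore rests on those 2. Within groups, after the group means were taken off, r was 0.85. That value includes those 2 libraries, and the members' mean spanned only 3.74 to 3.95 in non-trogocytic co-cultures. With the T cell marker mean the members' mean had r = −0.01 and with the epithelial marker mean −0.25. These values are given as descriptions, with no p.

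Gene by gene, 16 of the 24 members had a positive correlation with the macrophage mean and 8 a negative one, and the median r was 0.33, against −0.03 over all genes tested. Exact permutation tests over the 8 libraries were two-sided, with Benjamini-Hochberg adjustment over the 11411 tested genes that are not on the macrophage list. No member passed after adjustment, by r or by rho, and over all genes 0% passed by r. Before adjustment 5 members had an exact permutation p below 0.05 by r, beside 11.5% of all genes, and 4 by rho, beside 10.6%. All 5 correlations were positive. Bst2 had r = 0.87 (exact permutation p = 0.000794 before and 0.146 after adjustment) and rho = 0.90 (exact permutation p = 0.00456 before and 0.254 after adjustment), and without the 2 farthest libraries r was 0.74. Zbp1 had r = 0.89 (exact permutation p = 0.00613 before and 0.233 after adjustment) with rho of 0.74, and without the 2 farthest libraries r was 0.52. Samhd1 had r = 0.83 (exact permutation p = 0.00712 before and 0.247 after adjustment) with rho of 0.76, and without the 2 farthest libraries r was also 0.83. The others were Ifi204, with r = 0.83 (0.34 without the 2 farthest libraries), and Herc6, with r = 0.77 (−0.12 without them). The correlation within groups over all 8 libraries, after the group means were taken off, was 0.83 for Bst2, 0.87 for Zbp1 and 0.85 for Samhd1.

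Ddx58 and Ifitm3 did not follow the macrophage mean. Over all 8 libraries Ddx58 had r = −0.22 (exact permutation p = 0.595 before and 0.871 after adjustment) and rho = −0.36. It was highest in trogocytic replicate 3, the library with the lowest macrophage mean. Its r changed sign, to 0.33, without the 2 farthest libraries and was 0.38 within groups. Ddx58 had r = 0.55 with the T cell marker mean, and the part of T cells in the Ddx58 level was not tested. Ifitm3 had r = −0.34 over all 8 libraries (exact permutation p = 0.403 before and 0.7797 after adjustment), with rho of −0.24 and −0.38 without the 2 farthest libraries, and r = −0.91 within groups. In each group the lowest Ifitm3 level fell in one of the 2 libraries with the highest macrophage means. Ifitm3 also had r = −0.81 with the T cell marker mean and 0.39 with the epithelial marker mean, and its fold change was −1.99 with the epithelial mean in the fit. The part of T cells in its level was not tested.

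**Figure D3:**
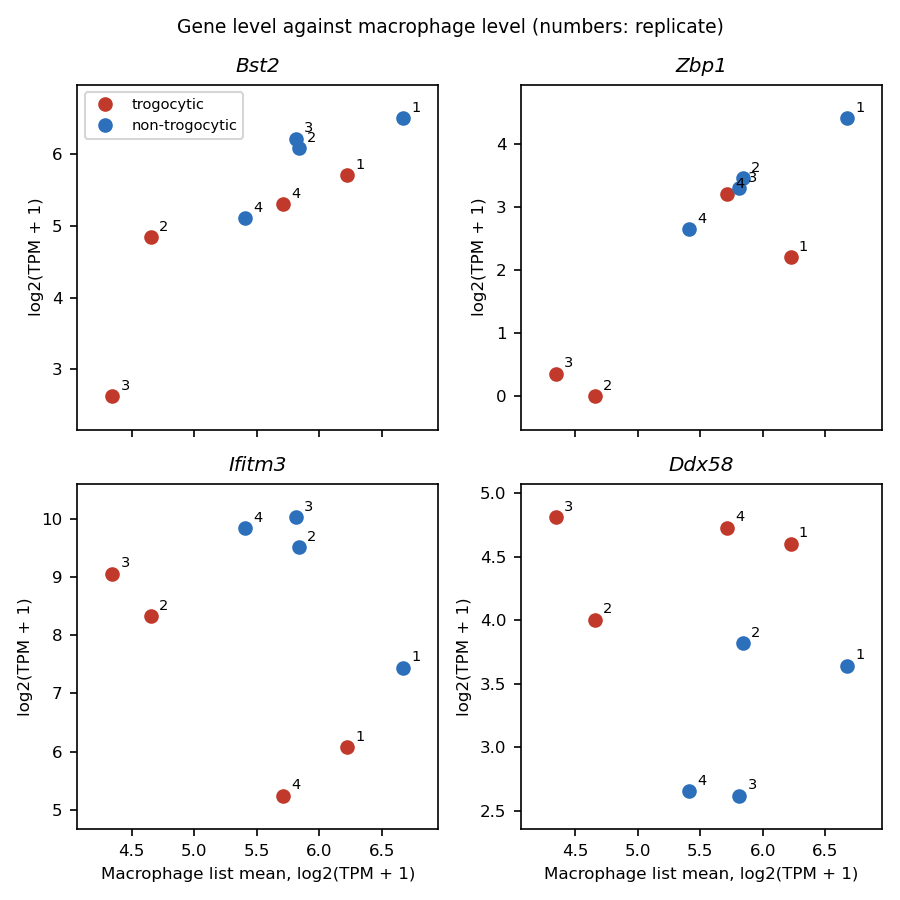
Level of 4 interferon stimulated genes (y axis, log2(TPM + 1)) against the mean of the tested macrophage markers (x axis, log2(TPM + 1)) in each library; red points are trogocytic and blue points non-trogocytic co-cultures, numbered by replicate. Bst2 and Zbp1 are lowest in trogocytic replicates 2 and 3 at the left, Ifitm3 slopes downward within each group, and all 4 red points of Ddx58 lie above the blue ones.

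With the macrophage mean added to the fit, the lower level of the list as a whole was smaller while single fold changes shifted both ways. Of the 24 members, 13 had a fold change below 0 and 11 above, and the median was −0.15, against −0.02 over all genes. Ifi27l2a, Trim30a, Herc6 and Samhd1 changed sign, 12 fold changes became smaller in size and 12 larger. At an unadjusted limma p below 0.05, 3 members were lower (Ifitm3, Ifit3 and Xaf1), beside 3.8% of all genes, and 3 were higher (Ddx58, Sp100 and Isg20), beside 4.91%. Bst2 stood at −0.51 ± 0.45, Zbp1 at −1.02 ± 0.58 and Ifi204 at −0.64 ± 0.54. Ddx58 stood at 1.54 ± 0.47 with an unadjusted limma p of 0.00853, no smaller than without the macrophage mean, and Sp100 at 1.22 ± 0.38 with 0.00903. Oas1a and Rtp4 kept fold changes of −1.59 ± 0.72 and −2.11 ± 0.96, and Xaf1 had −1.42 ± 0.62.

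Ifitm3 was the 1 member called in that fit, where 0.0525% of all genes were called. Its fold change at equal macrophage level was −3.37 ± 0.42 (limma, adjusted p = 0.0307), and the adjusted p was 0.0341 when Apoe and Lyz2 were taken off the macrophage list. The call held without trogocytic replicate 1 (limma adjusted p = 0.0288) and without non-trogocytic replicate 1 (limma adjusted p = 0.0284). It was lost without any 1 of the other 6 libraries, with a limma adjusted p of 0.0517 to 0.154. Over all 8 such fits the fold change stayed between −4.21 and −2.84. With Ptprc in the fit in place of the macrophage mean, the Ifitm3 fold change was −1.62 and was not called (limma adjusted p = 0.697). The macrophage mean itself stood lower in trogocytic co-cultures, at 5.23 ± 0.88 in trogocytic and 5.93 ± 0.53 in non-trogocytic co-cultures on the log2(TPM + 1) scale (SD, n = 4 each), so the fit compares libraries at a level that the groups do not fully share.

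**Figure D4:**
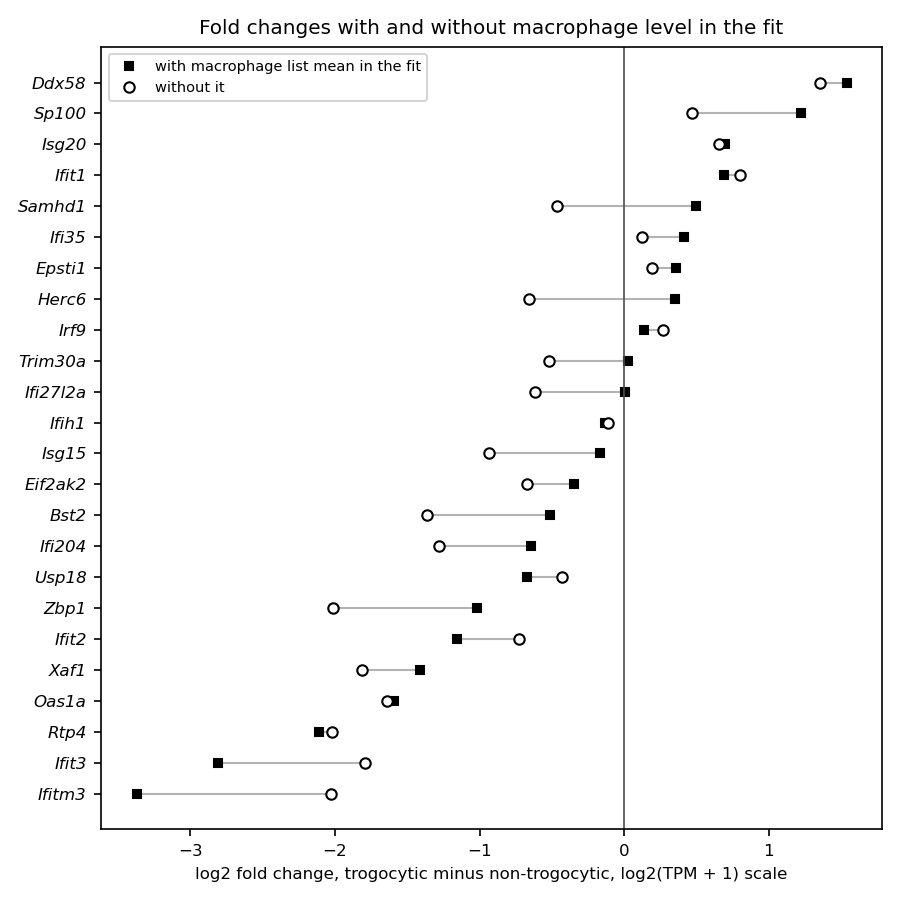
Log2 fold change (x axis, trogocytic minus non-trogocytic, log2(TPM + 1) scale) of each of the 24 tested genes with the macrophage mean in the fit (filled squares) and without it (open circles), joined by a line. Ifitm3 and Ifit3 move further below 0, Bst2 and Zbp1 move toward 0, and Ddx58 stays above 1.

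The interferons themselves were at or near 0. Of 11 interferon genes, 8 were listed at 0 in every library, Ifnb1 among them, and none could be tested. Ifng, which encodes interferon gamma of T and natural killer cells, was 6.17 TPM in trogocytic replicate 1 and 0 elsewhere. Ifnk was 0.958 TPM in trogocytic replicate 2 and 0 elsewhere, and Ifna4 was 0.0806 TPM in non-trogocytic replicate 3 and 0 elsewhere. Plasmacytoid dendritic cells are known as strong makers of type I interferon. Of 9 markers of these cells, 4 were tested and all had a fold change above 0, none with an unadjusted p below 0.05. Their summed level was 189 to 492 TPM in trogocytic and 147 to 446 TPM in non-trogocytic co-cultures, mostly from Ly6d, which B cells also express, and the marker Klk1 had a TPM of 0 throughout.

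Among the receptor and signalling genes no unadjusted p was below 0.05. Of 17 such genes, 14 were tested and 9 of them had a fold change below 0, with a median of −0.17. The receptor chain Ifnar2 was 11.9, 3.84, 22.6 and 14.1 TPM in trogocytic replicates 1 to 4, against 30.9, 21.3, 25.5 and 13.8 TPM in non-trogocytic replicates 1 to 4, with a fold change of −0.91 ± 0.50. Its groups overlapped, with trogocytic replicate 2 the lowest. The other chain, Ifnar1, had a fold change of −0.04 ± 0.60. Of 19 other genes of nucleic acid sensing, 13 were tested and 11 had a fold change below 0, with a median of −0.38 and no unadjusted p below 0.05. Among these, Irf5, a factor that drives inflammatory genes in macrophages, had −1.37 ± 0.64 and the RNA sensor Tlr3 −1.46 ± 0.84.

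A second list of 56 interferon stimulated genes that are not members lay evenly about 0. Of these, 40 were tested, 20 were below 0 and 20 above, and the median was −0.00218 on the log2 scale. Phf11b was 9.05, 3.77, 8.80 and 5.40 TPM in trogocytic replicates 1 to 4, against 22.4, 12.4, 16.2 and 11.4 TPM in non-trogocytic replicates 1 to 4, lower without overlap of the groups, with a fold change of −1.12 ± 0.42 and an unadjusted limma p of 0.0235. Slfn1, a growth regulator of T cells, was 48.6, 21.4, 37.4 and 35.9 TPM in trogocytic replicates 1 to 4, against 47.2, 7.49, 6.71 and 5.87 TPM in non-trogocytic replicates 1 to 4. Non-trogocytic replicate 1 lay inside the trogocytic range and the other 3 non-trogocytic libraries under it, and the fold change was 1.54 ± 0.60 with an unadjusted limma p of 0.0267. Marker means of T cells, in which 11 of 12 tested genes had a fold change above 0, were 4.99 ± 0.94 in trogocytic and 4.16 ± 1.15 in non-trogocytic co-cultures on the log2(TPM + 1) scale (SD, n = 4 each), and their part in the values of Slfn1 was not tested.

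Of 19 interferon-inducible GTPase genes, 11 were tested, with 6 below 0 and a median of −0.18. Irgm1, which acts against bacteria inside macrophages, was 3.22, 1.10, 18.6 and 14.01 TPM in trogocytic replicates 1 to 4, against 55.3, 24.7, 20.3 and 20.6 TPM in non-trogocytic replicates 1 to 4. All trogocytic libraries lay under all non-trogocytic ones, with trogocytic replicate 3 close to the lowest of them, and the fold change was −1.999 ± 0.70 with a limma p of 0.0164 before and 0.969 after adjustment. Tgtp2 of the same family pointed the other way, with 0.97 ± 0.73. Of the list of antigen processing and chemokine genes, 7 were tested, none of them a chemokine, and all 7 had a fold change below 0, with a median of −0.47 and no unadjusted p below 0.05. B2m, the shared light chain of class I molecules, had −0.05 ± 0.42, and Tapbp, which helps load peptides on them, −0.60 ± 0.37. The chemokine gene Cxcl10 was 8.45 TPM in trogocytic replicate 3, 2.82 TPM in non-trogocytic replicate 2 and 0 in the other 6 libraries.

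**Figure D5:**
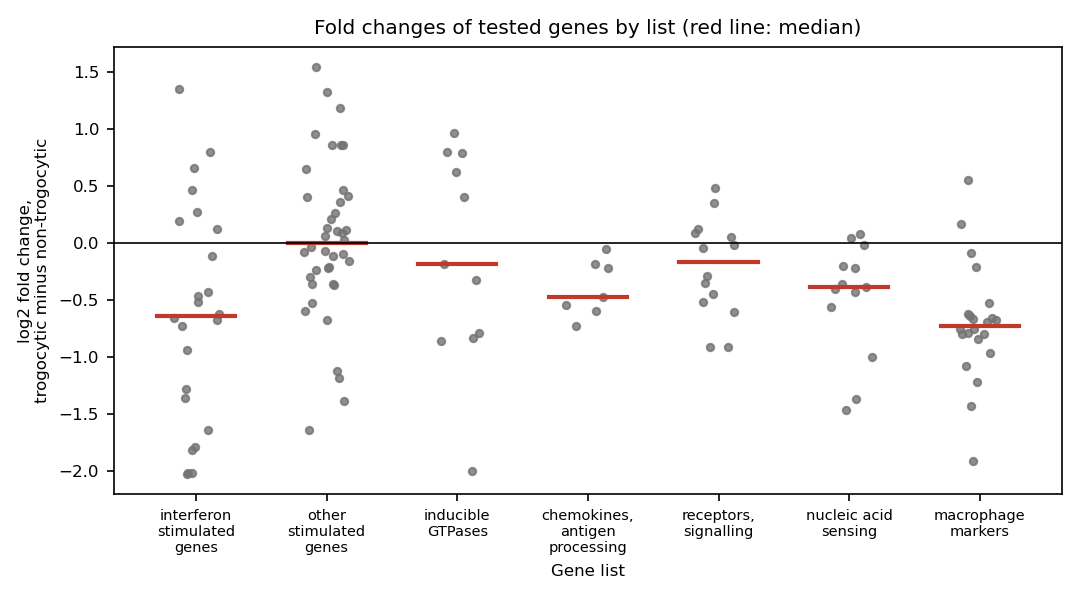
Log2 fold change (y axis, trogocytic minus non-trogocytic, log2(TPM + 1) scale) of every tested gene on 7 lists (x axis); each point is a gene, spread sideways for sight only, and red lines are list medians. The median of the 24 interferon stimulated genes is −0.64, that of the other stimulated genes is near 0 and that of the macrophage markers is −0.72.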

How the data were processed

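Polyadenylated RNA of 8 co-cultures was sequenced in paired reads of 100 bases from low-input libraries, per the labels' protocols. HISAT2, StringTie 1.3.3, DESeq version 2, GRCm38 and mm10 appear in the submitters' processing notes. For strand setting and annotation release nothing is given in the sources used here. Per the file headers, each deposited table holds coverage, FPKM and TPM per gene for 1 library. The deposited coverage is an average depth along each gene, and the ratio of the deposited coverage to the deposited FPKM gave the aligned bases per library. The deposited TPM was used for all levels; counts were not analysed here.

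TPM was summed per gene ID. The 38 members and the other gene lists were chosen with earlier results of these data known. The 11433 genes at 1 TPM or above in 4 libraries or more were fitted with limma 3.58.1 in R 4.3.3 on log2(TPM + 1) with a mean-variance trend, two-sided, with Benjamini-Hochberg adjustment, 4 trogocytic minus 4 non-trogocytic libraries. Correlations with the macrophage mean had been planned with adjustment over the members, and are adjusted over all genes instead, since the list was not chosen blind to these data. The limma fit without a covariate was tested on simulated data. Values in every library are given for the 10 tested members with the smallest p, those above 0, those whose groups did not overlap and the 5 most abundant, which made 16; other lists give the 2 genes with the smallest p and the 2 most abundant, of which not every one is named, and 1 gene is not reported here. A second fit added the mean of 22 tested macrophage markers. Alternatives were a pseudocount of 0.1, no filter, a filter at 5 TPM, FPKM, median-of-ratios scaling, no trend, the replicate number as a block, Ptprc or an epithelial mean as covariate, and each library left out. Symbols and positions are those of the files; 34 of the 38 members have the same span in GENCODE M21. Promoter windows are RefSeq's, on GRCm38.p6.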

Additional observations from a re-analysis of the deposited data

Results flagged for a closer look

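In 24 tested members with 2 groups each, 48 groups of 4 libraries were examined for a single library that stood apart from the other 3 of its group by more than Dixon's criterion, and 6 did. Chance flags about 1 in 20 groups where values are normally distributed. TPM is skewed upward, all 6 were on the high side, and the share was 12.5% for the members, beside 7.89% of the 22866 groups of all genes tested. Ifit3 stood at 4.69 TPM in trogocytic replicate 3, against 0 to 0.299 TPM in the other trogocytic libraries. Ifit2, which lies beside it, stood at 5.50 TPM in the same library, against 0.0831 to 0.839 TPM in the others of that group. Among non-trogocytic co-cultures Ifit2 was 4.59 TPM in replicate 1, against 1.43 to 1.84 TPM, and Ifit1 was 11.6 TPM in replicate 4, against 0 to 1.91 TPM. Non-trogocytic replicate 1 also held the high values of Ifi27l2a, at 43.9 TPM against 7.26 to 12.9 TPM in the others of its group, and of Samhd1, at 125 TPM against 38.6 to 48.3 TPM. That library had the highest macrophage mean of all 8, at 6.67 on the log2(TPM + 1) scale, and its part in these values was not tested.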

How the results depend on the processing

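No member was called in any alternative without a macrophage term. With the macrophage mean in the fit 1 was called (Ifitm3), and with 1 library left out of that fit the count was 0 to 1. The relation to the macrophage mean had 0 members past the adjusted threshold over 8 libraries and 0 without the 2 farthest. Members whose groups did not overlap numbered 3 with all libraries and 4 to 5 with 1 library left out, since fewer libraries overlap less often. For counts with 1 library left out the share over all genes is not given. Of 299 fold changes of the 16 named members, 287 kept their direction and call, 11 changed sign and 1 gained a call; 12 members never changed sign. Irf9 was −0.16 with a pseudocount of 0.1 and −0.50 to 1.20 with 1 library left out. Samhd1 was 0.49 with the macrophage mean and −0.79 to 0.25 with 1 library left out; Epsti1 was −0.17 to 0.95 and Ifi35 −0.19 to 0.45. Ifit3 fell under the filter in some alternatives and has no value there. The median of the members was −0.93 to −0.36 with 1 library left out and −0.15 with the macrophage mean. With Ptprc in the fit it was −0.80, with 17 of the 24 below 0, and Zbp1 was −2.32 and Bst2 −1.56. The number at an unadjusted limma p below 0.05 on the lower side was 3 to 6 with 1 library left out. It was 4 to 8 in the alternatives that kept all libraries and had no macrophage term, and the share over all genes is not given for these. Over all genes 6 were called, against 3 with FPKM or the epithelial mean, 1 without a filter or without the trend and 0 to 3 with 1 library left out. Deviations of same-numbered replicates had correlations of 0.24, 0.01, 0.06 and −0.09. That of replicate 1 was the highest of all pairs across the groups, so these values cannot settle whether the numbers pair the samples. With the replicate block 0 members and 0 of all genes were called. In that fit 8 members stood lower and 1 higher at an unadjusted limma p below 0.05, and the share over all genes is not given. Of 12 tested members with a mean of 5 to 20 TPM, 5 had a library at 0, beside 13.1% of all tested genes at that level; whether depth gave these zeros was not tested.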
